A study of Mus musculus with 10 samples.

Results

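The 7 genes described here encode proteins reported to bind or modify the transcription factor KLF13 or, in the case of SIN3A, to act with factors of its family as a corepressor. They are the kinase genes Prpf4b and Nlk, the acetyltransferase genes Kat2b, Crebbp and Ep300, the chromatin remodeller gene Smarca4 and the corepressor gene Sin3a. They were chosen by name, with earlier results of these data known. All 7 were found in both array tables, among 19048 genes present in both, and all 7 lay above the filter on dim genes that left 12485 genes for testing. Their transcripts were compared between T cells without and with KLF13.

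The KO group was 5 arrays from KLF13 KO mice and the WT group 5 arrays from wild-type mice. The mice were all male, of Balb/C background and aged 12 weeks. CD3+ T cells were isolated from spleen and activated for 4 days with antibody to CD3 coated on the plate and antibody to CD28 in solution. Total RNA was measured on Affymetrix arrays as log2 RMA signal. The labels used here do not say how Klf13 was deleted or in which cells. KO1 to KO3 and WT1 to WT3 formed an exon-level table with several probe sets per gene, and KO4, KO5, WT4 and WT5 a gene-level table with 1 probe set for each of the 7 genes.

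KLF13 is a zinc-finger protein that binds GC-rich and CACCC-type boxes in promoters, and in T cells it is known for the late induction of the chemokine gene Ccl5. In human T cells it is reported to bring the kinase PRP4 (Prpf4b) and Nemo-like kinase (Nlk) to the CCL5 promoter, together with histone acetyltransferases and the remodelling ATPase BRG1 (Smarca4). PCAF (Kat2b), CBP (Crebbp) and p300 (Ep300) can acetylate histones and also transcription factors, while SIN3A holds histone deacetylases and takes part in repression. Proteins of this kind act in many cells and on many genes, and an array measures their transcripts and not their activity.

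The exon-level columns lay on separate scales, with medians of 5.21 to 5.23 in KO1 and WT1 and of 6.25 to 6.43 in replicates 2 and 3, and it is not known whether they were normalized together. KO and WT were therefore compared within 3 scale sets. One held KO1 and WT1, the next replicates 2 and 3 of both genotypes, and the last replicates 4 and 5. The KO1 and WT1 set has 1 array per genotype and allows no test of its own. Klf13, the targeted gene, read 5.41 in KO1 against 6.03 in WT1, and 6.16 and 6.07 in KO2 and KO3 against 6.95 and 6.89 in WT2 and WT3. Its gene-level signal was 6.21 and 6.46 in KO4 and KO5 against 7.21 and 7.54 in WT4 and WT5, so that each KO array lay below the WT arrays of its set. KO3 stood apart. Its interquartile range was 3.10, while the other 5 arrays of that table had 3.43 to 3.56. Across genes it correlated with KO2 at 0.87, against 0.991 to 0.994 for the other like-labelled arrays of a set. In replicates 2 and 3 the median difference of all tested genes was -0.22 and that of the brightest 20% was -0.59, while the medians of all tested genes were -0.02 in replicate 1 and -0.01 in replicates 4 and 5. Quantile normalization within tables moved the median of replicates 2 and 3 to -0.06. T cell markers were bright in every array (mean log2 of 7 of the 8 listed genes 9.12 to 9.93 in KO and 9.42 to 10.5 in WT), and their mean difference was -0.29, -0.87 and 0.05 in the 3 sets. Markers of other cells were dimmer than those of T cells, with B cell means of 3.75 to 5.65 in KO and 3.62 to 5.44 in WT (6 of the 7 listed genes) and a difference of 0.15 in each set. The means of the myeloid, NK, erythroid and stromal lists lay from 3.53 to 6.18 in KO and from 3.49 to 5.90 in WT, with differences of -0.13 to 0.46. The part of either in the results below was not tested. In bulk RNA fewer cells of a type and less RNA per cell cannot be told apart.

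Because KLF13 binds GC and CACCC boxes, the 250 bases before the annotated starts of the 7 genes were searched in RefSeq's promoter table (GRCm38.p6), in which all 7 genes matched with 9 windows. The letters searched were GGGCGG for the GC box and CACCC for the CACCC box, on both strands, and no GC box overlapped a CACCC box in these windows. A GC box stood in 7 of the 9 windows, belonging to 6 of the 7 genes, against 32.7% of 32851 such windows in the genome. The gene without it was Kat2b, whose windows held 0 GC boxes and were 40.8% and 48.4% G and C, below the genome's median of 52.4%. The Crebbp window was the richest, with 84% G and C, 44 CpG pairs, 2 GC boxes and 2 CACCC boxes. A CACCC box stood in 5 of the 9 windows, against 52% in the genome. These matches describe the letters only.

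The stretches that lie before the outermost annotated start of their gene and keep at least 80 bases are shown, 5′ to 3′ on the gene's strand, with GC and CACCC boxes in capitals. The Smarca4 stretch holds 3 GC boxes and each of the others 1, but the stretches differ in length, from 80 bases for Nlk to 245 for Ep300. The whole Nlk window held 2 GC boxes, and a second Sin3a window, not shown, held 3. The Ep300 stretch also holds a CACCC box on the opposite strand.
Nlk (chr11:78697596-78697675, minus strand): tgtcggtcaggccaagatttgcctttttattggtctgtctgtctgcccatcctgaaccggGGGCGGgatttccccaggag
Ep300 (chr15:81585964-81586208, plus strand): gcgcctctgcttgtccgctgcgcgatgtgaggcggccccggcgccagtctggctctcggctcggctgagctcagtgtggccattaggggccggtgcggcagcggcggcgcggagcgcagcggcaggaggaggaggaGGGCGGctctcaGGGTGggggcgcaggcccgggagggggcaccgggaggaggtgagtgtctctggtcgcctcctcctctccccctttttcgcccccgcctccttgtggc
Smarca4 (chr9:21615919-21616105, plus strand): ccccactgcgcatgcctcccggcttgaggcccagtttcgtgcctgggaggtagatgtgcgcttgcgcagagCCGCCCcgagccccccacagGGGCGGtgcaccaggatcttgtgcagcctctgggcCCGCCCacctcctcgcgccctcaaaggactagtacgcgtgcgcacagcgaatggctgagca
Sin3a (chr9:57071790-57071990, plus strand): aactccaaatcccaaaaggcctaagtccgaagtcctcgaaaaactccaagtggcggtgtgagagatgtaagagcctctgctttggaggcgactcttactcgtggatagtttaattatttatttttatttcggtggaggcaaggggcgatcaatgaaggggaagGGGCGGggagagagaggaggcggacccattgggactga

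The first question was whether activated T cells without KLF13 carry different amounts of the transcripts of its partners. Over all 10 arrays none of the 7 genes passed the test (limma with scale set as block, Benjamini-Hochberg adjusted p from 0.398 for Kat2b to 0.620 for Sin3a), while 0.585% of all tested genes did. None of the 7 had an unadjusted p under 0.05, against 14.9% of all tested genes, nor an exact permutation p under 0.05, against 12.4%. The differences ran from -0.44 for Kat2b to -0.16 for Sin3a, all 7 below 0, with a median of -0.25 beside -0.10 over all tested genes, of which 7933 of 12485 were also below 0. With array weights the 7 differences lay between -0.10 and 0.06. For Klf13, the check of the labels, the difference passed (-0.86 ± 0.12, SE, 5 arrays against 5, adjusted p = 0.0126). That call was lost without WT2 (adjusted p = 0.0689), KO4 (0.0641), WT4 (0.0558), KO5 (0.0539) or WT3 (0.0507). None of the 7 partner genes kept KO and WT apart in the same direction in all 3 sets, against 10.8% of tested genes with KO lower and 1.63% with KO higher.

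**Figure D1:**
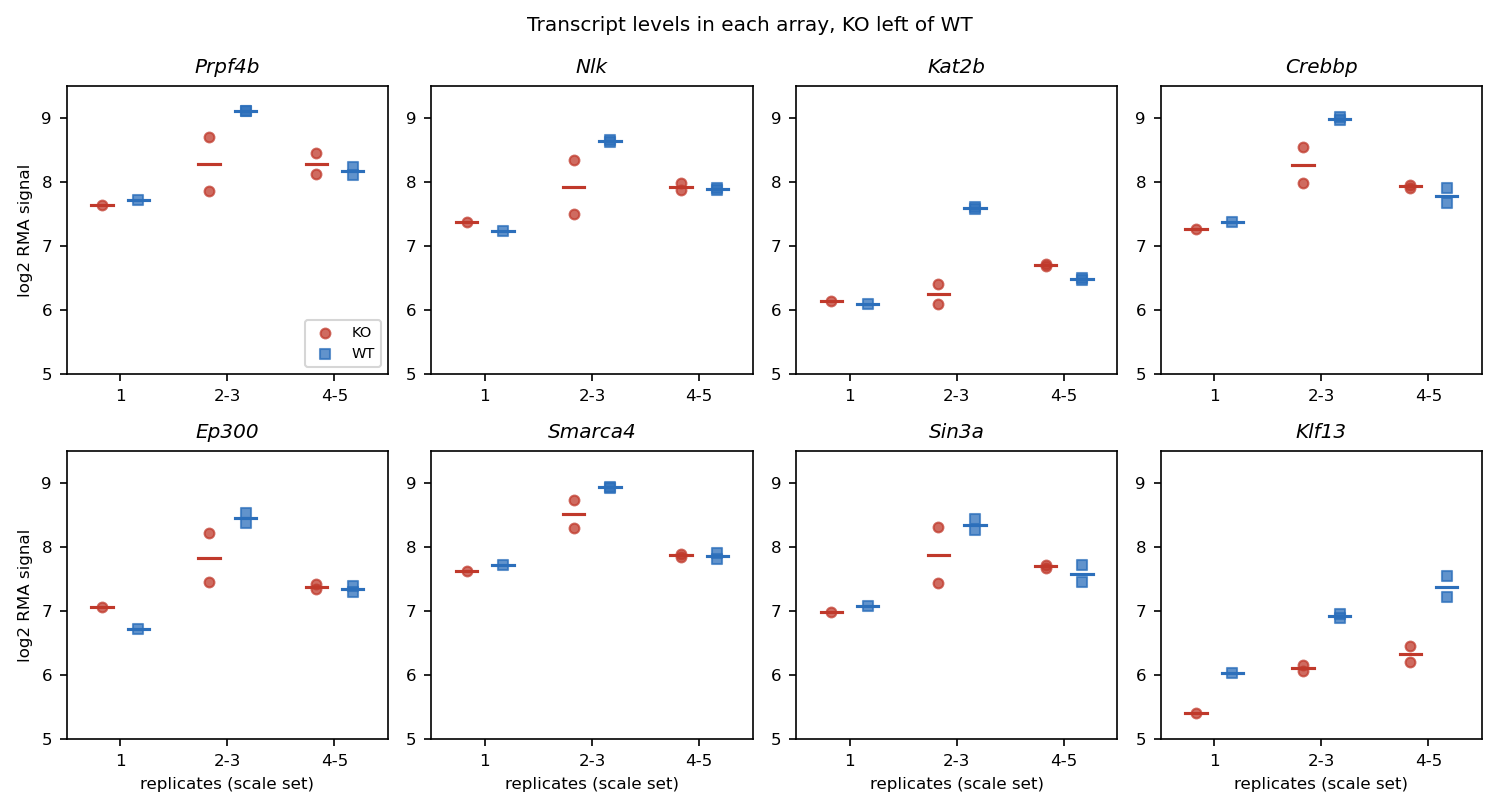
Log2 RMA signal (vertical axis) of the 7 partner genes and of Klf13 in each array, by scale set (horizontal axis), with KO as red circles left of WT as blue squares and lines for means. For all 7 partner genes the KO mean lies below the WT mean in replicates 2 and 3 and above it in replicates 4 and 5 (for Smarca4 there, not after subtraction of array medians), while Klf13 is lower in KO in each set.

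Among the kinases, Prpf4b encodes a kinase of the pre-mRNA splicing machinery that is known to phosphorylate splicing factors. It read 7.65 in KO1 against 7.73 in WT1, and 8.70 and 7.85 in KO2 and KO3 against 9.12 and 9.10 in WT2 and WT3. Its gene-level values were 8.13 and 8.45 in KO4 and KO5 against 8.24 and 8.11 in WT4 and WT5. The groups overlapped in replicates 4 and 5 and were separate in replicates 2 and 3, where KO3 lay far under KO2. Over all arrays the difference was -0.30 ± 0.20 (SE, 5 arrays against 5, adjusted p = 0.456), with a 95% interval of -0.75 to 0.14. An exact permutation of genotype within sets gave p = 0.222, unadjusted and 2-sided, where 0.0278 was the smallest that the 72 regroupings could give.

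Nlk encodes a serine/threonine kinase that acts on transcription factors of the Wnt, Notch and other pathways. It read 7.37 in KO1 against 7.23 in WT1, and 8.34 and 7.50 in KO2 and KO3 against 8.63 and 8.66 in WT2 and WT3. On the gene-level arrays it read 7.87 and 7.98 in KO4 and KO5 against 7.87 and 7.90 in WT4 and WT5. KO1 was the higher array of its set, and the gene-level values of both genotypes lay within a narrow band. The difference over all arrays was -0.25 ± 0.19 (SE, 5 arrays against 5, adjusted p = 0.498), with a 95% interval of -0.66 to 0.17 and an exact permutation p of 0.278.

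Among the acetyltransferases, Kat2b encodes PCAF, which acetylates histone H3 as part of a multi-subunit coactivator complex. It read 6.14 in KO1 against 6.10 in WT1, and 6.41 and 6.09 in KO2 and KO3 against 7.57 and 7.61 in WT2 and WT3. The gene-level table gave 6.73 and 6.68 in KO4 and KO5 against 6.48 and 6.50 in WT4 and WT5. The groups were apart in opposite directions, with both KO arrays under both WT arrays in replicates 2 and 3 and both above them in replicates 4 and 5. In replicates 2 and 3 the KO mean was 0.394 of the WT mean (log2 difference -1.35, with KO2 at -1.19 and KO3 at -1.50 against the WT mean), and 0.649% of tested genes had a lower difference there. That difference had the smallest unadjusted p of the 7 genes and did not pass (limma, 2 arrays against 2, SE 0.24, unadjusted p = 0.00142, adjusted p = 0.297). In replicates 4 and 5 Kat2b was at 1.16 times the WT level (0.21 ± 0.12, SE, 2 arrays against 2, adjusted p = 0.439). Over all arrays the difference was -0.44 ± 0.24 (SE, 5 against 5, adjusted p = 0.398), with a 95% interval of -0.98 to 0.09 and an exact permutation p of 0.333.

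Crebbp and Ep300 encode CBP and p300, close relatives that acetylate histones H3 and H4 and bridge transcription factors to RNA polymerase II. Crebbp read 7.26 in KO1 against 7.38 in WT1, and 8.55 and 7.99 in KO2 and KO3 against 8.97 and 9.01 in WT2 and WT3. On the gene-level arrays Crebbp read 7.96 and 7.91 in KO4 and KO5 against 7.90 and 7.67 in WT4 and WT5. The genotypes were separate in both larger sets and in opposite directions, but in replicates 4 and 5 not after subtraction of array medians. The difference of Crebbp was -0.25 ± 0.17 over all arrays (SE, 5 against 5, adjusted p = 0.460, 95% interval -0.63 to 0.13, exact permutation p = 0.25), and 0.15 ± 0.13 in replicates 4 and 5 (SE, 2 against 2, adjusted p = 0.656).

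Ep300 read 7.06 in KO1 against 6.72 in WT1, and 8.22 and 7.45 in KO2 and KO3 against 8.38 and 8.54 in WT2 and WT3. In the gene-level table Ep300 read 7.42 and 7.34 in KO4 and KO5 against 7.29 and 7.39 in WT4 and WT5. Its difference of 0.34 in replicate 1 was the highest of the 7 genes there, and 93.4% of tested genes lay below it. Over all arrays the difference was -0.17 ± 0.18 (SE, 5 against 5, adjusted p = 0.614), with a 95% interval of -0.57 to 0.24 and an exact permutation p of 0.611.

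Smarca4 encodes BRG1, an ATPase of the SWI/SNF complexes, which slide or evict nucleosomes. It read 7.63 in KO1 against 7.72 in WT1, and 8.73 and 8.29 in KO2 and KO3 against 8.92 and 8.94 in WT2 and WT3. The gene-level signal was 7.84 and 7.89 in KO4 and KO5 against 7.90 and 7.81 in WT4 and WT5. It had the smallest difference of the 7 genes in replicates 2 and 3 (-0.42) and in replicates 4 and 5 (0.01). The interval over all arrays was also the narrowest of the 7, from -0.47 to 0.10 around -0.18 ± 0.13 (SE, 5 against 5, adjusted p = 0.469, exact permutation p = 0.111).

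Sin3a encodes the scaffold of a histone deacetylase complex. It read 6.99 in KO1 against 7.08 in WT1, and 8.31 and 7.44 in KO2 and KO3 against 8.26 and 8.43 in WT2 and WT3. At the gene level Sin3a read 7.72 and 7.67 in KO4 and KO5 against 7.71 and 7.45 in WT4 and WT5. Of the 7 genes it was the single case in which a KO array, KO2, lay between the WT arrays of replicates 2 and 3. That order holds for the mean of its probe sets, which takes in a probe set with a far higher value in KO2, given at the end. The median Sin3a probe set lay at -0.20 in KO2 against the mean of WT2 and WT3. The difference over all arrays was -0.16 ± 0.18 (SE, 5 against 5, adjusted p = 0.620), with a 95% interval of -0.54 to 0.23 and an exact permutation p of 0.639.

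**Figure D2:**
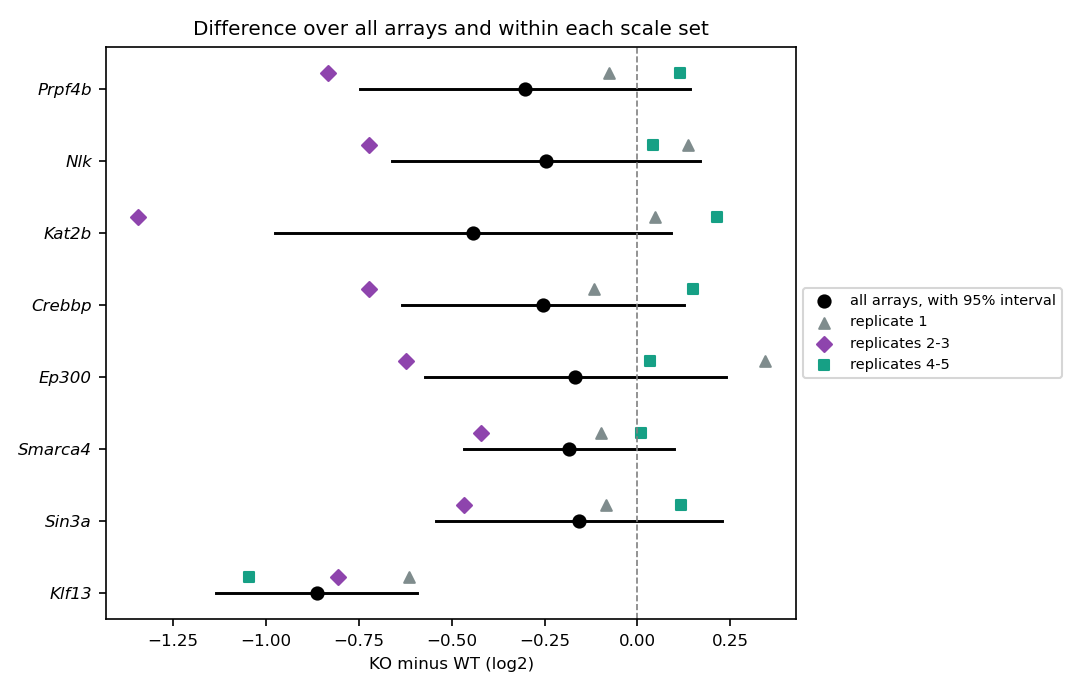
Log2 difference of KO minus WT (horizontal axis) for each gene (vertical axis), with black points and bars for the estimate over all arrays and its 95% interval, and smaller symbols for the 3 scale sets. Each bar of the 7 partner genes spans 0, and the symbols of replicates 2 and 3 lie left of the other sets for each of them, from -1.35 for Kat2b to -0.42 for Smarca4.

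The intervals over all arrays bound a single difference taken as common to all sets, and not the difference within a set. Their lower bound was 0.508 of the WT level for Kat2b and between 0.596 and 0.723 of it for the other 6 genes. Kat2b was at 0.394 of the WT level in replicates 2 and 3 (interval 0.261 to 0.593), under its lower bound. In replicates 4 and 5 it was at 1.16, over its upper bound of 1.07. Prpf4b, Nlk, Crebbp and Ep300 also lay under their lower bounds in replicates 2 and 3, while Smarca4 and Sin3a did not. In replicates 4 and 5 alone none of the 7 passed (adjusted p 0.439 to 0.990), against 2.72% of all tested genes (0.721% with KO higher and 1.99% with KO lower), and 0 of 7 had an unadjusted p under 0.05, against 16%. The 7 differences there ran from 0.01 to 0.21, and the intervals reached from -0.27 at the lowest to 0.49 at the highest bound. Both KO arrays lay above both WT arrays for Kat2b and Crebbp, or 2 of 7, against 20.3% of all tested genes. After subtraction of array medians this held for Kat2b alone. After quantile normalization within tables it held for Kat2b, Crebbp and Nlk.

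The second question was whether the sets gave like values. In replicates 2 and 3 all 7 differences were below 0, with a median of -0.72. The median there was -0.22 for all tested genes and -0.59 for the brightest 20% of them. In replicates 4 and 5 all 7 were above 0, with a median of 0.11 beside -0.01 for all tested genes, except that Smarca4 was at -0.02 after subtraction of array medians. In replicates 2 and 3 the KO arrays lay under both WT arrays for 6 of the 7 genes, against 43.1% of all tested genes. There 0 of 7 passed (adjusted p 0.297 to 0.511) and 0% of all tested genes did. The unadjusted p was 0.00142 for Kat2b, 0.0395 for Crebbp and 0.0454 for Prpf4b, which made 3 of 7 under 0.05, against 9.52% of all tested genes. With quantile normalization within tables the unadjusted limma p was 0.0730 for Crebbp and 0.0866 for Prpf4b. Both were also above 0.05 with the median of probe sets and with trend and robust moderation, which left Kat2b alone under it. T cell markers were also lower in KO in replicates 2 and 3, by the values given above. In replicate 1 the differences of 4 genes were below 0 and of 3 above, with a median of -0.08. In the exon-level table as a whole 0 of 7 passed (adjusted p 0.582 to 0.638), as did 0% of all tested genes, with Kat2b at an unadjusted p of 0.0196, or 1 of 7 under 0.05, against 8.16%.

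**Figure D3:**
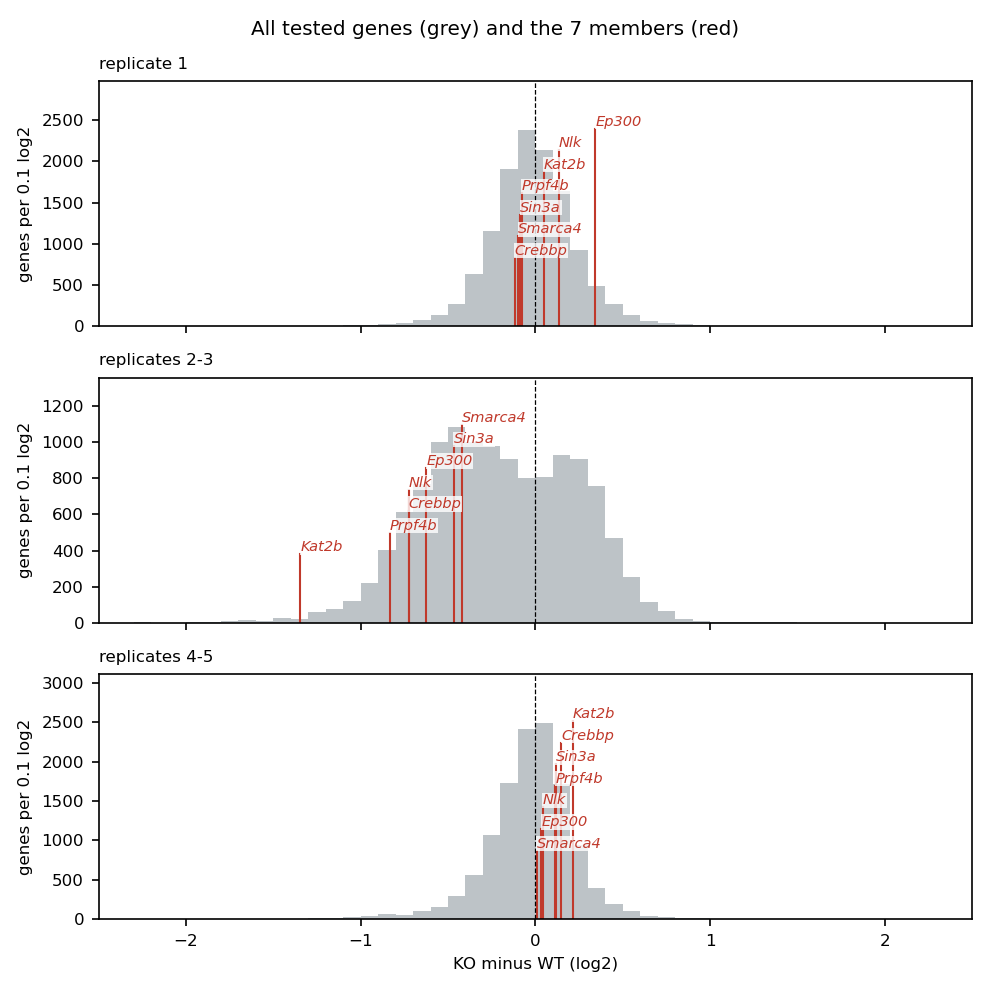
Number of tested genes (grey bars, vertical axis) by log2 difference of KO minus WT (horizontal axis) in each scale set, with red lines at the 7 partner genes, whose heights carry no value. The grey distribution is broad with a peak on either side of 0 in replicates 2 and 3, where the 7 genes lie from -1.35 to -0.42, and a narrow shape around 0 in the other sets.

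A sign below 0 in replicates 2 and 3 together with a sign above 0 in replicates 4 and 5, counted after these values had been seen, was found for 7 of 7 partner genes (6 after subtraction of array medians, without Smarca4), for 26.2% of all tested genes and for 36.6% of the 1976 genes that belonged to the brightest 20% in both tables, 4 partner genes included. With the further condition that KO and WT did not overlap in replicates 2 and 3 the counts were 6 of 7, against 16.6% of all tested genes. The signs alone were also counted in the lists of related genes described below. They were found for 60% of the acetyltransferase and coactivator genes and 52.6% of the kinases and cyclins. The shares were 38.5% of the NLK regulators and targets, 34.8% of the SWI/SNF subunits, 25% of the SIN3 complex subunits and 0% of the spliceosomal genes. Whether the KO difference itself differed between the tables was tested as an interaction. None of the 7 passed (limma, adjusted p 0.872 to 0.886), and 0% of all tested genes did, with 5.27% at an unadjusted p under 0.05. For Kat2b the gene-level difference exceeded the exon-level difference by 1.10 ± 0.40 (SE, unadjusted p = 0.0193, adjusted p = 0.872), and for Crebbp by 0.67 ± 0.30 (unadjusted p = 0.0519, adjusted p = 0.872).

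KO3 was the lowest of the 4 arrays of replicates 2 and 3 for each of the 7 genes. Against the mean of WT2 and WT3, KO3 differed by -1.50 for Kat2b, by -1.26 for Prpf4b, by -1.14 for Nlk and by -0.64 to -1.01 for the other 4 genes, with -0.34 as the median of all tested genes. KO2 differed by -1.19 for Kat2b, by -0.44 for Crebbp, by -0.41 for Prpf4b and by -0.03 to -0.31 for the other 4, with a median of -0.11. The Crebbp mean takes in probe set 10437337, which lay at -6.63 in KO2 and is given at the end. In KO2 the median probe set lay at -0.33 for Crebbp, beside -0.40 for Prpf4b, -0.32 for Nlk and -0.30 for Ep300. Kat2b was the gene of the 7 that was low to a like degree in both KO arrays. With KO3 left out of the test over all sets, 0 of 7 passed and the differences of Ep300 and Sin3a turned to 0.02 each. Kat2b was then at -0.25 (adjusted p = 0.522), Prpf4b at -0.09, Crebbp at -0.10, Smarca4 at -0.08 and Nlk at -0.04. Within replicates 2 and 3, 7 of 7 passed without KO2 and Kat2b, Crebbp and Prpf4b passed without KO3, but in those fits the WT arrays alone gave the spread, and 9608 and 2499 of the 12485 tested genes passed.

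The exon-level table held 177 probe sets of the 7 genes, from 11 for Nlk to 34 for Smarca4, of which 174 passed the filter on dim probe sets. In replicates 2 and 3, 159 of the 177 had a difference below 0, against 62.9% of all tested probe sets, and for 116 both KO arrays lay under both WT arrays. All 116 were among the 174 tested, and the share among all tested probe sets was 35.7%. With the scale set as block 0 of 174 passed (limma over 169103 probe sets, smallest adjusted p = 0.743), and 0% of all did. At an unadjusted p under 0.05 were 8 of the 174, against 4.67% of all. Probe sets of a gene share its arrays and are not replicates of the condition.

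For Kat2b all 16 probe sets were below 0 in replicates 2 and 3, from -2.34 to -0.50 with a median of -1.36, and 14 of them had both KO arrays under both WT arrays. In replicate 1 the same 16 ran from -1.26 to 2.33, with 10 below 0 and a median of -0.15. Probe set 10445920 had the smallest unadjusted p of the Kat2b probe sets (0.00468, adjusted p = 0.743). It read 4.02 in KO1 against 5.04 in WT1, and 5.04 and 4.41 in KO2 and KO3 against 6.74 and 7.38 in WT2 and WT3. Probe set 10445912 went in opposite directions, at 9.83 in KO1 against 7.49 in WT1, and at 7.76 and 6.43 in KO2 and KO3 against 8.97 and 9.05 in WT2 and WT3.

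All 11 probe sets of Nlk were also below 0 in replicates 2 and 3, with a median of -0.73, but 8 of 11 were above 0 in replicate 1. For Prpf4b 25 of 27 were below 0 in replicates 2 and 3 (median -0.85). For Crebbp these were 29 of 32 (median -0.61), for Ep300 28 of 31 (median -0.63), for Smarca4 29 of 34 (median -0.34) and for Sin3a 21 of 26 (median -0.52). The Prpf4b medians against the mean of WT2 and WT3 were -1.50 in KO3 and -0.40 in KO2.

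**Figure D4:**
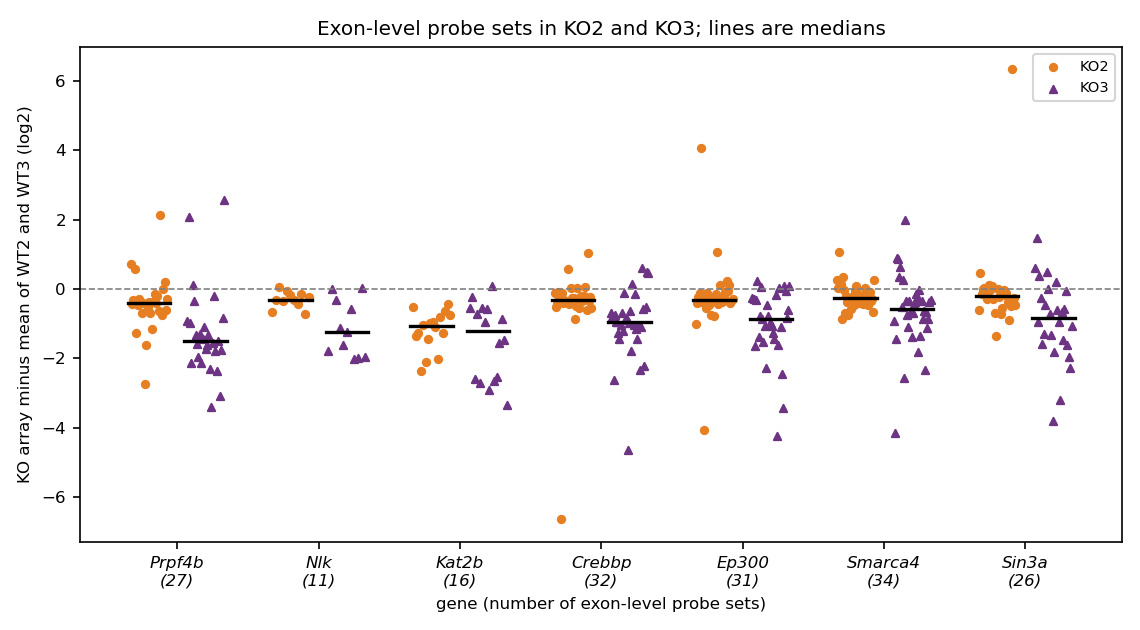
Difference of KO2 (orange circles) and KO3 (purple triangles) from the mean of WT2 and WT3, in log2 units (vertical axis), for each exon-level probe set of the 7 genes (horizontal axis), with black lines for medians. The Kat2b medians of -1.05 in KO2 and -1.21 in KO3 lie close together, while those of Prpf4b are -0.40 and -1.50.

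After subtraction of each set's mean, the 7 genes varied together over the 10 arrays, with Pearson r between 0.70 (Kat2b and Sin3a) and 0.98 (Prpf4b and Smarca4) and a median of 0.91 over 21 pairs. In the 6 arrays outside replicates 2 and 3 the median was 0.34, with a range from -0.87 (Ep300 and Smarca4) to 0.98 (Crebbp and Sin3a). Klf13 itself had r between 0.23 and 0.49 with the 7 genes over the 10 arrays. The genes most like each in pattern over these arrays were Dnajc7 and Usp3 for Prpf4b, Fam3c and Tomm22 for Nlk, Myh9 and H13 for Kat2b, Nup210 and Ikbkb for Crebbp, Vps37a and Clasp1 for Ep300, Nxf1 and Ppp4r1 for Smarca4, and Morc3 and Rif1 for Sin3a, with r from 0.989 to 0.998. These values share the same arrays and the same KO3. The usual r between other tested genes was not summarized. Whether the high r is particular to the 7 genes is therefore not known.

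Related genes were set beside the 7. Of the other acetyltransferase and coactivator genes 25 of 26 were tested, and 0 passed in either direction over the 3 sets, with a median of -0.16. The smallest p was that of Ncoa3, a steroid receptor coactivator (-0.56 ± 0.20, SE, 5 arrays against 5, adjusted p = 0.257). Its differences were -0.45, -1.16 and 0.00 in the 3 sets. Of the SWI/SNF subunits other than Smarca4, 23 of 23 were tested and 0 passed (median -0.12), with Smarcd2 at -0.31 ± 0.12 (adjusted p = 0.277). Of the SIN3 and histone deacetylase complex subunits, 20 of 20 were tested and 0 passed (median -0.26). The deacetylase gene Hdac1 was at -0.49 ± 0.15 (adjusted p = 0.206), with -0.23, -0.88 and -0.24 in the 3 sets.

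A list of kinases related to PRP4 and of RNA polymerase II tail kinases with their cyclins and the assembly factor Mnat1 also had 0 of 19 tested genes past the threshold (median -0.22). The splicing kinase Clk3 was at -0.49 ± 0.14 (SE, 5 against 5, adjusted p = 0.169), with values below 0 in each set, and passed without KO3 (adjusted p = 0.0376). Among regulators and targets of NLK 0 of 13 passed (median -0.16), with the transcription factor Foxo1 at -0.32 ± 0.15 (adjusted p = 0.333). In the gene-level table alone Myb, a transcription factor that NLK is known to phosphorylate and that was named after its value was seen, rose by 0.56 ± 0.12 (SE, 2 against 2, adjusted p = 0.0465), a call that was lost without any 1 of the 4 arrays (adjusted p 0.0716 to 0.237). It was the only call among these lists there. Genes of the spliceosomal particle in which PRP4 kinase works had 0 of 13 past the threshold with a median of -0.34, the lowest of the lists, and Usp39 at -0.42 ± 0.15 (adjusted p = 0.257). All 13 were below 0, and 7 of 13 had an unadjusted limma p under 0.05, against 14.9% of all tested genes. In the other lists, in the order given, 1 of 25, 3 of 23, 5 of 20, 4 of 19 and 1 of 13 had such a p.

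**Figure D5:**
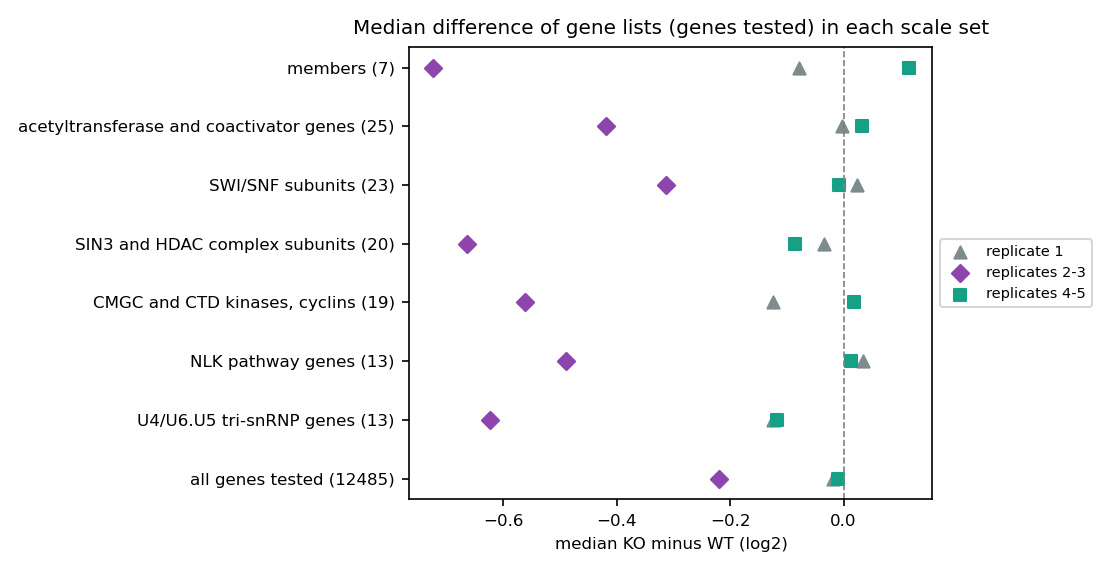
Median log2 difference of KO minus WT (horizontal axis) of the 7 partner genes (members), of 6 lists of related genes and of all tested genes (vertical axis, with the number of genes tested), in each scale set. Each list lies below the median of all tested genes of -0.22 in replicates 2 and 3, and the 7 partner genes lie lowest there at -0.72 and highest in replicates 4 and 5 at 0.11.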

How the data were processed

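The deposited values are log2 signals that the authors made with RMA, per the submitters' processing notes. Its version, the genome build and any further step were not given in the sources used here. Values came as 2 tables of 241576 exon-level and 35556 gene-level probe sets. Whether the exon-level arrays were normalized together is not known, which bears on each value of replicates 2 and 3 and of KO3. The platform tables gave 212097 and 21789 of them exactly 1 gene, with older symbols updated through RefSeq's GRCm38.p6 gene table, and the others were not used for gene values. A gene's value was the mean log2 of its exon-level probe sets and its brightest gene-level probe set. Genes were tested whose mean log2 reached the 30th percentile in both tables.

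Fits used R 4.3.3 and limma 3.58.1 (lmFit, eBayes, 2-sided, Benjamini-Hochberg over all tested genes, threshold 0.05), with the scale set as fixed block. They were checked on simulated data. Exact permutation tests are unadjusted. The members, lists, fits and alternatives were chosen with earlier results of these data known. Named genes were the 7 members, Klf13, the 2 genes most correlated with each member, and the passing genes or else the gene of smallest p of each list. The titles number the arrays of each genotype as replicates, and each array was taken as a separate mouse. The number of arrays limits the precision.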

Additional observations from a re-analysis of the deposited data

Results flagged for a closer look

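In KO arrays, centred on the mean of their scale set, KO3 lay far below the other 4 for 5 of the 7 genes. The gap to the nearest array, as a share of the range, was 0.868 for Nlk, 0.824 for Smarca4, 0.777 for Ep300, 0.761 for Crebbp and 0.718 for Sin3a, against a critical value of 0.71. Of 14 groups tested 5 passed it, and the 5 share the same array. The critical value, which chance passes in about 1 group in 20, is meant for independent values. Here the set means include the KO arrays themselves and the genes varied together, so that rate does not apply to this count.

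For Crebbp and Sin3a every KO array of the exon-level table was below the WT mean of its set and every KO array of the gene-level table was above it, so that the tables' differences stood apart by 0.67 and 0.456. Within replicates 2 and 3 these genes were at -0.724 and -0.466. Kat2b, at -1.35 in replicates 2 and 3, was likewise lower in both KO arrays there and higher in both KO arrays of replicates 4 and 5. In the interaction test between the tables none of these 3 genes passed (limma, adjusted p = 0.872 each).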

How the results depend on the processing

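Over the 3 scale sets 0 of 7 genes passed under each alternative tried, among them quantile normalization within tables or sets, subtraction of array medians, the median of probe sets, other filters, the table as block, array weights and the omission of each array, with adjusted p between 0.328 and 1.00. The signs of Ep300 and Sin3a turned with array weights (0.0603 and 0.0299), and without single arrays these genes ran from -0.295 to 0.0213 and from -0.243 to 0.0245. The other 5 kept their sign but not their size. Across normalizations, summaries, filters, blocks and weights Kat2b ran from -0.45 to -0.10, Prpf4b from -0.30 to -0.06, Nlk from -0.33 to -0.02, Crebbp from -0.25 to -0.02 and Smarca4 from -0.18 to -0.06. Without single arrays Kat2b ran from -0.57 to -0.25, Prpf4b from -0.42 to -0.09, Nlk from -0.34 to -0.04, Crebbp from -0.35 to -0.10 and Smarca4 from -0.23 to -0.08, each nearest 0 without KO3. With quantile normalization within tables the median of the 7 was -0.49 in replicates 2 and 3 and 0.16 in replicates 4 and 5, with the same signs for all 7. The number of all genes called moved from 73 to 4 with the table as block, 32 with the median of probe sets, 40 with quantile normalization added, 504 with array weights, and 12 (without KO4) to 362 (without KO3). Without KO3 the exon-level fit called 426 genes and the interaction 121, where each called 0 with it. Klf13 did not pass with the table as block (adjusted p = 1.00), Clk3 passed with array weights (0.0439), and Myb in the gene-level table did not after subtraction of array medians (0.0528) or without the filter (0.0501). Within replicates 2 and 3 the count of members called ran from 0 to 7 without single arrays, and the exon-level value of Ep300 from -0.624 to 0.0109. None of the 7 passed in the gene-level table. Smarca4 was at -0.0201 there after subtraction of array medians. Without single arrays it ran from -0.0360 to 0.0538, Ep300 from -0.0172 to 0.0842, Nlk from -0.0146 to 0.0985, Prpf4b from -0.0466 to 0.276 and Sin3a from -0.0154 to 0.248. All genes called there numbered 339, against 517 with trend and robust moderation and 193 to 529 without single arrays. In the permutation statistic Ep300 ran from -0.295 to 0.0429 and Sin3a from -0.232 to 0.0291.

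With the replicate number as block 0 of 7 passed (adjusted p 0.491 to 0.671) and 23 genes in all. Like-numbered arrays did not deviate together (r = -0.42 in replicates 2 and 3 and -0.24 in replicates 4 and 5), so the numbers were not taken to pair the mice.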

Other observations

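Single exon-level probe sets of these genes had values in 1 KO array that no other array shared, chosen here after they were seen. Probe set 10585649 of Sin3a read 14.8 in KO2 and 6.48 in KO3, against 8.62 and 8.26 in WT2 and WT3. Probe set 10425532 of Ep300 read 13.8 in KO2 and 9.95 in KO3, against 9.84 and 9.62 in WT2 and WT3. In the other direction, probe set 10437337 of Crebbp read 2.54 in KO2 and 8.22 in KO3, against 9.32 and 9.02 in WT2 and WT3, and probe set 10425535 of Ep300 read 4.56 and 8.67, against 8.43 and 8.80. In replicate 1, probe set 10437349 of Crebbp read 2.45 in KO1 and 7.25 in WT1. None of the 5 passed the test (limma, adjusted p = 0.830 for that of Sin3a and 0.743 for each of the others).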
